A study of Rattus norvegicus with 6 samples.

Results

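The genes described here are 7 genes of nerve fibres, measured in outer hair cells picked from the rat cochlea: Nefl, Nefm and Nefh, which encode the light, medium and heavy neurofilament chains, Prph (peripherin), Gap43, Stmn2 and Thy1. They were chosen by symbol, each symbol matched 1 row, and they are 7 of the 35790 genes in the deposited table. The rats were Sprague-Dawley (SD), wild type, and 9 days old (P9), and 3 libraries came from the apical turn of the cochlea (tuned to low frequencies) and 3 from the basal turn (tuned to high frequencies). For every library of either turn, 30 cells freed by collagenase IV were picked under a microscope and lysed as a pool. The labels do not tell the animals of the 3 libraries of a turn apart, so a p-value here speaks only of library-to-library spread, part of which may be technical.

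Neurofilaments are intermediate filaments built from the light, medium and heavy chains together, and they fill the axons of neurons and set their calibre. Outer hair cells are contacted by afferent fibres of type II spiral ganglion neurons, which are known for peripherin, and by efferent fibres from the brainstem, while type I neurons serve the inner hair cells. Gap43 is a membrane protein of growing axon tips, Stmn2 (stathmin 2) binds tubulin and destabilises microtubules in growth cones, and Thy1 is a surface glycoprotein of neurons that fibroblasts and, in the mouse, T cells also carry. Neurofilament protein has also been described in hair cells of the developing rat cochlea, so its genes do not belong to nerve fibres alone.

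Depth was similar in both groups, at 16511675 to 23140976 gene counts per library. The label was checked against outer hair cell markers: oncomodulin, listed as Ocm2, was at 4857 to 16400 CPM (counts normalised to the library's total of gene counts) in apical and 5749 to 53555 CPM in basal libraries. Of all gene counts, the 15 matched outer hair cell markers took 2.29% to 4.35% in the apical libraries. The same markers took 6.82% in basal replicate 1, 2.34% in basal replicate 2 and 0.882% in basal replicate 3. Ocm2 alone took 5.36% in basal replicate 1. Without it, the remaining 14 markers summed to 1.81% to 2.93% for the apical group. Their sum was lower in each basal library, at 1.46%, 0.875% and 0.307%. Calb1 (calbindin), the largest of these 14, was at 13553 to 21291 CPM in apical and 2021 to 9394 CPM in basal libraries, and it weighs on that sum. In basal replicate 1 only 8 of the 14 markers were below every apical library, so the lower sum there does not hold for each marker. Basal replicates 2 and 3 also stood apart in 15 Schwann cell and myelin genes, which took 3.76% and 2.57% of their counts, against 0.360% in basal replicate 1 and 0.0420% to 0.0937% in apical libraries. Results below are therefore also given without these libraries. In pooled cells, fewer cells of a type and less RNA per cell cannot be told apart.

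Peripherin transcripts were found in 2 of the 6 libraries. Prph (ENSRNOG00000052880, chromosome 7, 140742418 to 140746197 of the deposited table, whose build is not named) had 0 counts in each of the 3 apical libraries and in basal replicate 1. It had 86 counts in basal replicate 2 and 351 in basal replicate 3, or 2.97 and 9.86 FPKM (the authors' level per gene length and library size). Only those 2 basal libraries held the transcript, so the groups overlapped at 0. Against a floor of 3 counts over the apical group, or 0.0464 CPM, the summed basal rate of 7.91 CPM was at least 170-fold higher. That bound rests on basal replicates 2 and 3, and most of all on replicate 3, which held 351 of the 437 counts. It was 53.0-fold without basal replicate 3, 195-fold without basal replicate 2 and 255.6-fold without basal replicate 1. With apical replicate 1, 2 or 3 left out, which raises the floor, it was 110-fold, 121-fold or 109-fold. The floor in basal replicate 1 alone was 0.163 CPM. The gene did not pass the filter on low counts and has no edgeR test. By DESeq2 its adjusted p was 0.0624, and the authors' deposited table lists an infinite fold change with an adjusted p of 0.292. Over the whole table, 162 of 35790 genes (0.453%) had counts in basal replicates 2 and 3 and none in the other 4 libraries, a pattern looked for after the values of Prph had been seen.

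Prph is also the only member of the 7 with an entry in the table of RefSeq promoter windows used here. Its 250 bases before the annotated start are shown because this gene went from 0 to 351 counts between libraries. They lie at chr7:132097039-132097288 on the plus strand of GRCr8, and the capitals mark the single match to TATAAA, the core of a common promoter motif.
Prph: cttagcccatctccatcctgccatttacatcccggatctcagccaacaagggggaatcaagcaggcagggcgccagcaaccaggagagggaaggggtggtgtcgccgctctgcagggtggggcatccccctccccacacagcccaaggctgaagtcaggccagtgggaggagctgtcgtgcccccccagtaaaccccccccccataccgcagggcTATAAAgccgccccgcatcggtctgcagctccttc
The match runs from 35 to 30 bases before the start, and the other strand of the window held 0 matches. TATAAA was found on the gene's strand in 8.06% of 33469 such windows and within the last 50 bases before the start in 2.26%. On either strand it was found in 12.9%. The window was 64.4% G and C, against a median of 51.2% over all windows. These letters describe the sequence and say nothing of what acts on it.

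Nefh, the heavy chain gene, was the only 1 of the 7 whose groups did not overlap. It lies on chromosome 14 (ENSRNOG00000008716, 85181572 to 85191557). Listed by replicate number, its level was 1.45, 1.94 and 1.80 FPKM in the apical libraries and 2.40, 21.4 and 52.0 FPKM in the basal libraries; the same listing holds for each set of 3 values below. The apical libraries lay close together, basal replicate 1 was just above them, and basal replicates 2 and 3 were far higher. The group means were 1.73 ± 0.26 and 25.3 ± 25.0 FPKM (SD, n = 3 each), and the two-sided exact permutation p was 0.1, the smallest that 3 against 3 allows.

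By edgeR's quasi-likelihood test the log2 fold change of Nefh, basal over apical, was 3.88 (SE 1.04), with an unadjusted p of 0.00621 and an adjusted p of 0.438. It did not pass an adjusted p of 0.05, and neither did any of the 13507 genes tested (0%), although 811 of them (6%) had an unadjusted p under 0.05. By DESeq2 Nefh did pass, with an adjusted p of 0.00696, among 664 of 14350 genes (4.63%), of which 271 (1.89%) were higher in basal libraries. The authors' deposited table gives Nefh a log2 fold change of 3.93 with an adjusted p of 0.75. Its log2 fold change lay between 2.76 and 4.43 with any 1 library left out. It was 0.67 with basal replicates 2 and 3 left out, so most of its size came from them. Non-overlapping groups with basal higher were found for 640 of 13507 genes (4.74%), and with basal lower for 1525 (11.3%).

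Nefl and Nefm, the light and medium chain genes, had overlapping groups. Nefl and Nefm are neighbours on chromosome 15 on opposite strands, 50735 bases apart with no other gene of the table between them (44799334 to 44804574 and 44855310 to 44860604). Nefl was at 22.7, 4.42 and 4.24 FPKM in the apical libraries. In the basal libraries Nefl was at 0.048, 37.1 and 23.1 FPKM. The lowest and the highest library were both basal, and basal replicate 1 had 3 counts against 2078 and 1590 in basal replicates 2 and 3. Nefm was at 13.2, 4.32 and 28.0 FPKM in the apical and 0.531, 9.23 and 31.3 FPKM in the basal libraries. Here too basal replicate 1 was lowest, with 30 counts, and the other 5 libraries of both turns were mixed in order. The log2 fold changes were 0.93 (SE 1.55) for Nefl and -0.13 (SE 1.24) for Nefm, with an edgeR adjusted p of 1.00 for each. With 1 library left out, Nefl ranged from 0.20 to 2.19 and Nefm from -1.66 to 0.63, so the sign for Nefm turned.

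**Figure D1:**
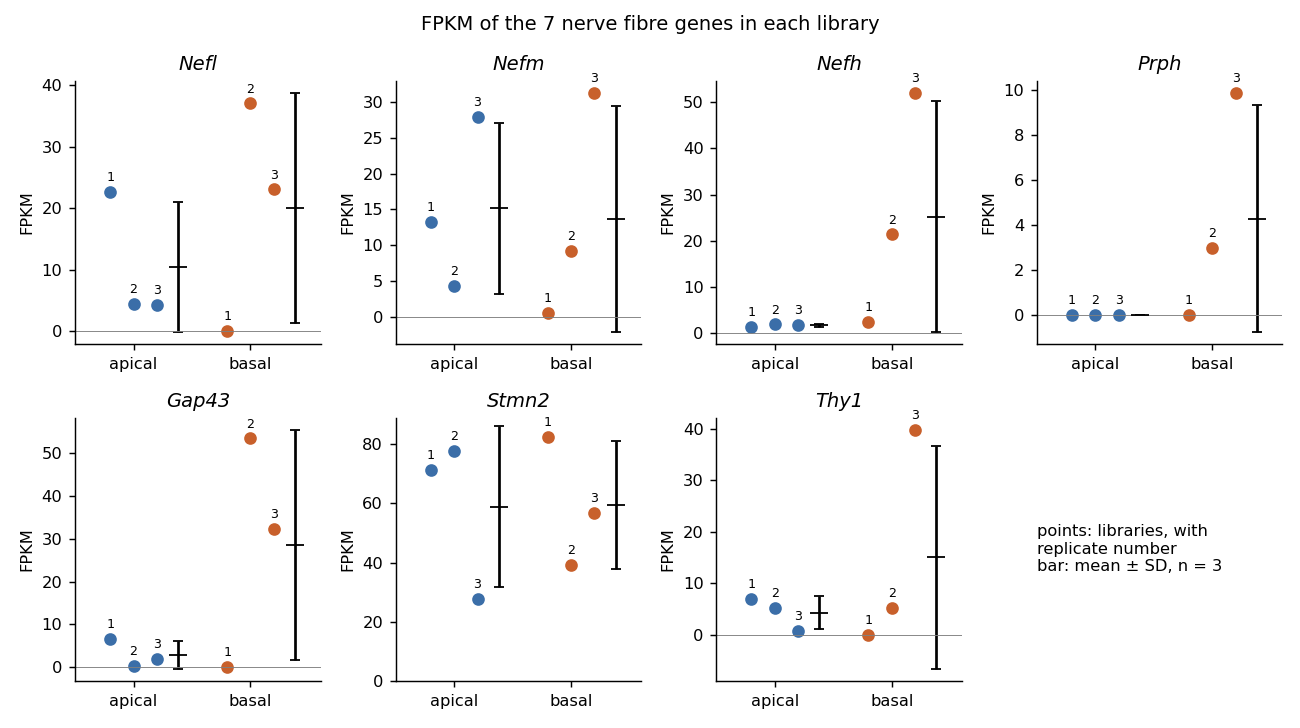
FPKM (vertical axes, linear) of the 7 genes in apical and basal libraries, with points numbered by replicate and bars at the mean ± SD of 3 libraries. Nefh lies between 1.45 and 1.94 in apical libraries and at 2.40, 21.4 and 52.0 in basal ones, while Prph is at 0 in 4 libraries and Stmn2 overlaps fully.

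The balance of the 3 chains differed from library to library. Because FPKM is per length, their levels can be set beside each other. Nefl was the highest of the 3 in apical replicates 1 and 2 and basal replicate 2, Nefm in apical replicate 3, and Nefh in basal replicates 1 and 3. Nefh made up 3.87%, 18.2% and 5.29% of the summed FPKM of the 3 chains in the apical libraries. It made up 80.5%, 31.6% and 48.9% of that sum in the basal libraries. The share of Nefh therefore did not overlap between the groups, including in basal replicate 1, where the sum was only 2.98 FPKM. There Nefh was at 2.40 FPKM, near the apical 1.45 to 1.94 FPKM, and its large share came with 3 counts of Nefl and 30 of Nefm. Shares within other sets of genes were not taken for comparison. The sum was 10.7 to 37.4 FPKM in apical libraries and 67.7 and 106 FPKM in basal replicates 2 and 3. The ratio of Nefl to Nefm ran from 0.152 to 1.72 in apical and from 0.090 to 4.02 in basal libraries, with full overlap.

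**Figure D2:**
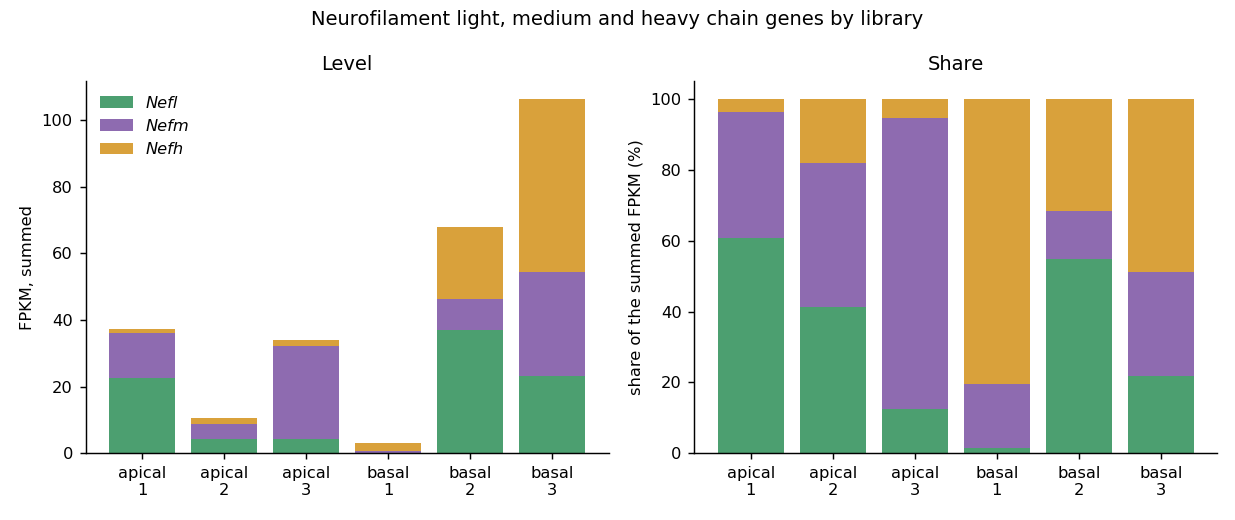
Summed FPKM of Nefl, Nefm and Nefh in each library (left) and the share of each chain in that sum in percent (right). The share of Nefh is 3.87% to 18.2% in apical and 31.6% to 80.5% in basal libraries, and basal replicate 1 has the lowest sum, 2.98 FPKM.

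Gap43 and Thy1 were high in 1 or both of the same basal libraries and nearly absent from basal replicate 1. Gap43 (chromosome 11, 58624198 to 58717914) was at 6.65, 0.254 and 1.95 FPKM in the apical and 0.037, 53.4 and 32.2 FPKM in the basal libraries. Basal replicate 1 had 1 count, below every apical library, and basal replicates 2 and 3 had 1305 and 969, above every apical library. By edgeR the log2 fold change of Gap43 was 3.26 (SE 1.99; adjusted p = 1.00), and 2.51 to 4.67 with 1 library left out. With basal replicates 2 and 3 left out it turned to -5.98. Thy1 (chromosome 8, 48382121 to 48386935) was at 6.85, 5.22 and 0.748 FPKM in the apical and 0, 5.11 and 39.8 FPKM in the basal libraries. Only basal replicate 3 was above the apical range. By edgeR the log2 fold change of Thy1 was 1.82 (SE 2.17; adjusted p = 1.00) and turned to -0.79 without basal replicate 3. Of the 7 T cell markers, Cd3e, Cd3d, Cd8a and Cd2 had 0 counts in every library, but Cd3g and Lck were detected. Cd3g was at 5.25, 12.03 and 16.2 CPM in the apical and 0, 0 and 0.739 CPM in the basal libraries. Lck, a tyrosine kinase, was at 9.15, 0.0537 and 20.1 CPM in the apical and 27.1, 56.3 and 0 CPM in the basal libraries, and so at 0 in the library with most Thy1. The 9 matched fibroblast and mesenchyme markers took 0.0138% to 0.0653% of counts in apical libraries, 0.0197% in basal replicate 1, and 0.143% and 0.126% in basal replicates 2 and 3. The part of fibroblasts and T cells in the values of Thy1 was not tested.

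Stmn2 had close to the same mean level in both turns. It lies on chromosome 2 (95424251 to 95472115) and was at 71.2, 77.7 and 27.9 FPKM in the apical and 82.4, 39.3 and 56.8 FPKM in the basal libraries. The groups overlapped throughout, and basal replicate 1, where Nefl, Nefm, Gap43 and Thy1 were lowest, had the highest value of all. The means were 58.9 ± 27.1 and 59.5 ± 21.7 FPKM (SD, n = 3 each). The edgeR log2 fold change of Stmn2 was 0.11 (SE 0.55; adjusted p = 1.00), and its sign turned to -0.27 without basal replicate 1 and to -0.24 without apical replicate 3. A p that misses the threshold does not show equal expression, and 1 SE on either side already spans more than 1 log2 unit.

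By mean FPKM over all 6 libraries the order was Stmn2 (59.2), Gap43 (15.7), Nefl (15.3), Nefm (14.4), Nefh (13.5), Thy1 (9.63) and Prph (2.14). Every neighbouring pair in that order overlapped in range. Stmn2 was the highest of the 7 in 4 libraries, Nefm in apical replicate 3 and Gap43 in basal replicate 2. Within the apical libraries alone, Nefh (1.45 FPKM or more) was apart from Prph (0), and every other neighbouring pair in their order overlapped. Stmn2 supplied 93.9% of the counts of the 7 genes in basal replicate 1, against 19.9% and 19.3% in basal replicates 2 and 3 and 34.2% to 78.9% in apical libraries. All 7 together took 0.0168% to 0.0289% of counts in apical libraries, 0.0181% in basal replicate 1, and 0.0408% and 0.0609% in basal replicates 2 and 3.

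Of the 7 genes, 6 passed the filter on low counts, and 5 of these 6 had a log2 fold change above 0, against 6613 of 13507 genes (49%). Their median log2 fold change was 1.37, or 1.82 with Prph at its bound, and the median over all genes was -0.02. The median of the 6 was -5.30 with basal replicates 2 and 3 left out, a fit added after seeing the data. It has 1 basal library, where Nefl, Gap43 and Thy1 had 3, 1 and 0 counts. With all 6 libraries kept, the median was -0.28 by limma-voom and -0.056 by limma on log2(FPKM + 0.1). Its direction therefore depends on those 2 libraries and on the method. In 4 of the 7 genes (Nefl, Nefh, Prph and Gap43) both basal replicates 2 and 3 lay above every apical library. For Nefl the margin was small, at 78.3 CPM in basal replicate 3 against 77.2 CPM in apical replicate 1. Without basal replicate 1, 1975 of 15086 genes (13.1%) had basal replicates 2 and 3 above every apical library. In that fit 2 genes (0.0133%) passed and none of the 7 did, the lowest adjusted p being 0.154 for Nefh. Among the 3 basal libraries, log2 CPM varied with an SD of 4.95 for Gap43, 4.87 for Nefl and 4.61 for Thy1, against a median of 1.64 over all genes tested. For Nefm, Nefh and Stmn2 the SD was 2.87, 2.17 and 0.65. The SDs of Gap43, Nefl and Thy1 rest on their 1, 3 and 0 counts in basal replicate 1.

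**Figure D3:**
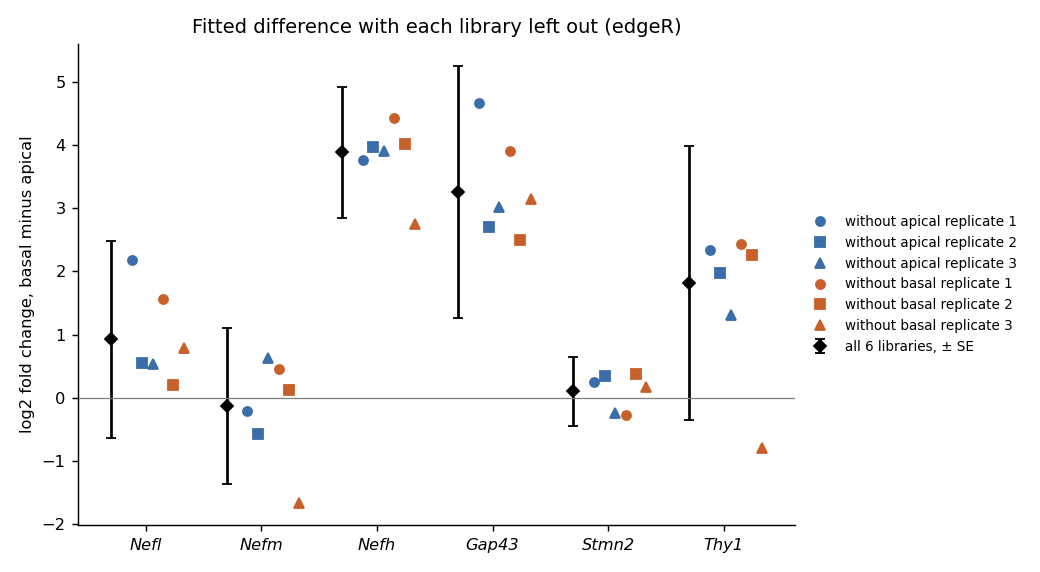
Log2 fold change, basal minus apical, of the 6 genes tested by edgeR, with all 6 libraries (diamonds, ± SE) and with each library left out (coloured points). Nefh and Gap43 stay above 0 in each of these fits, at 2.76 to 4.43 and 2.51 to 4.67, while Nefm, Stmn2 and Thy1 cross 0.

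Other neuronal genes were taken from lists, to show their values in the same libraries. Of 26 pan-neuronal genes, 14 were tested, 4 higher and 10 lower in basal libraries, with a median log2 fold change of -1.23 and none passing by edgeR. Of the 26, 11 had 0 counts in every apical library, and 3, 6 and 11 of these had counts in basal replicates 1, 2 and 3. Over the whole table, 11880, 11244 and 15668 genes had counts in basal replicates 1, 2 and 3, so more genes of any kind were detected in replicate 3. The share of all genes with the pattern of these 11 was not taken, so the count is a description only. The next 2 genes were chosen after their values were seen. Kcna2, a potassium channel of myelinated axons, had 0 counts in the apical libraries and was at 1.25, 49.5 and 40.4 CPM in the basal ones, and by edgeR its adjusted p was 0.438. Tubb3, the neuronal beta-tubulin, of the axonal cytoskeleton list, had 1 apical count in all, 0 in basal replicate 1, and 24.8 and 39.3 CPM in basal replicates 2 and 3. DESeq2 called Kcna2 and Tubb3 (adjusted p = 1.68e-06 and 0.00524). Their highest libraries were basal replicates 2 and 3, as for Prph, Gap43, Nefh and, by a small margin, Nefl. Other genes of the list went the other way. Of the 14 tested, groups did not overlap for 2 with basal higher and for 3 with basal lower, against 4.74% and 11.3% of all genes tested. Those 3 were Rbfox3, Nsg2 and Nrcam, also named after their values were seen.

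Other neuronal genes were present in every library. Rtn1, a reticulon of the endoplasmic reticulum, was at 114, 123 and 116 CPM in the apical and 62.5, 143 and 121 CPM in the basal libraries. Uchl1, a ubiquitin hydrolase abundant in neurons, was at 88.2 to 308 CPM in apical and 45.1 to 139 CPM in basal libraries. Snap25, a protein of synaptic vesicle fusion, was at 23.8 to 38.1 CPM in apical and 114 to 164 CPM in basal libraries, without overlap and with basal replicate 1 highest. By edgeR the log2 fold change of Snap25 was 2.27 (SE 0.46; adjusted p = 0.438), and it passed by DESeq2 (adjusted p = 3.35e-05). Sncg (gamma-synuclein) was at 5.95, 28.1 and 29.9 CPM in the apical and 24.0, 244 and 184 CPM in the basal libraries.

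Markers listed for single neuron classes varied in level from gene to gene. Of the 10 type II neuron markers, Prph included, 5 were tested, 2 higher and 3 lower in basal libraries, and Th had 0 counts in every library. Gata3, a transcription factor that cochlear hair cells and supporting cells express too, was at 183 to 329 CPM in apical and 115 to 348 CPM in basal libraries. Calca, a neuropeptide gene also used by efferent neurons, was at 56.9 to 204 CPM in apical and 42.7 to 79.6 CPM in basal libraries. Of the 12 type I neuron markers 6 were tested, 3 in each direction. Calb2 (calretinin), a calcium-binding protein, was at 31.9, 0 and 83.9 CPM in the apical and 0, 36.5 and 34.6 CPM in the basal libraries. Prox1, a transcription factor that supporting cells also express, was at 0.832, 27.3 and 22.3 CPM in the apical and 0, 7.09 and 0.739 CPM in the basal libraries. DESeq2 called 1 type I marker higher and 1 lower in basal libraries. Of the 8 efferent markers 4 were tested, 2 in each direction. Isl1, a transcription factor, was at 121 to 174 CPM in apical and 23.2 to 171 CPM in basal libraries, and Chat and Slc18a3, of acetylcholine synthesis and storage, had 0 counts everywhere. Of 7 nerve injury genes 3 were tested. Gal (galanin, a neuropeptide) was at 21.3, 38.9 and 211 CPM in the apical and 0, 0 and 0.0493 CPM in the basal libraries (edgeR adjusted p = 0.423, DESeq2 adjusted p = 3.07e-09). For Gadd45a and Jun the log2 fold changes were -0.25 (SE 0.58) and -0.60 (SE 1.83), and Atf3 and Sprr1a had 0 counts everywhere.

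Related cytoskeletal genes gave a mixed picture. Of 12 other intermediate filament and linker genes 10 were tested, 8 higher and 2 lower in basal libraries, with a median of 1.42. Vim (vimentin), the filament of mesenchymal and Schwann cells, was at 94.3, 103 and 155 CPM in the apical and 266, 1555 and 1338 CPM in the basal libraries (log2 fold change 3.18, SE 0.64, edgeR adjusted p = 0.438). Of the 10 tested, groups did not overlap for 2 with basal higher, Vim among them, and for 1 with basal lower, Krt18. Krt18 was at 9.45, 38.1 and 167 CPM in the apical and 8.83, 5.75 and 8.52 CPM in the basal libraries. The edgeR estimate for Krt18 was -3.12 log2 units, basal against apical, and it did not pass (adjusted p = 0.555). Ina (alpha-internexin), which can co-assemble with the neurofilament chains and was picked after its values were seen, was at 6.27 to 18.9 CPM in apical and 14.96 to 44.4 CPM in basal libraries, and at 18.6 CPM in basal replicate 1. Of 11 stathmin and growth cone relatives 10 were tested, 6 higher and 4 lower, with Stmn1 at 101 to 1190 CPM in apical and 154 to 745 CPM in basal libraries. Marcks, a membrane substrate of protein kinase C, was at 31.3 to 53.7 CPM in apical and 67.9 to 249 CPM in basal libraries (log2 fold change 2.18, SE 0.56, edgeR adjusted p = 0.438). Of 18 axonal cytoskeleton and transport genes 17 were tested, 13 higher and 4 lower with a median of 0.40. Map1b, a microtubule protein of growing axons, was at 113 to 206 CPM in apical and 88.2 to 224 CPM in basal libraries.

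**Figure D4:**
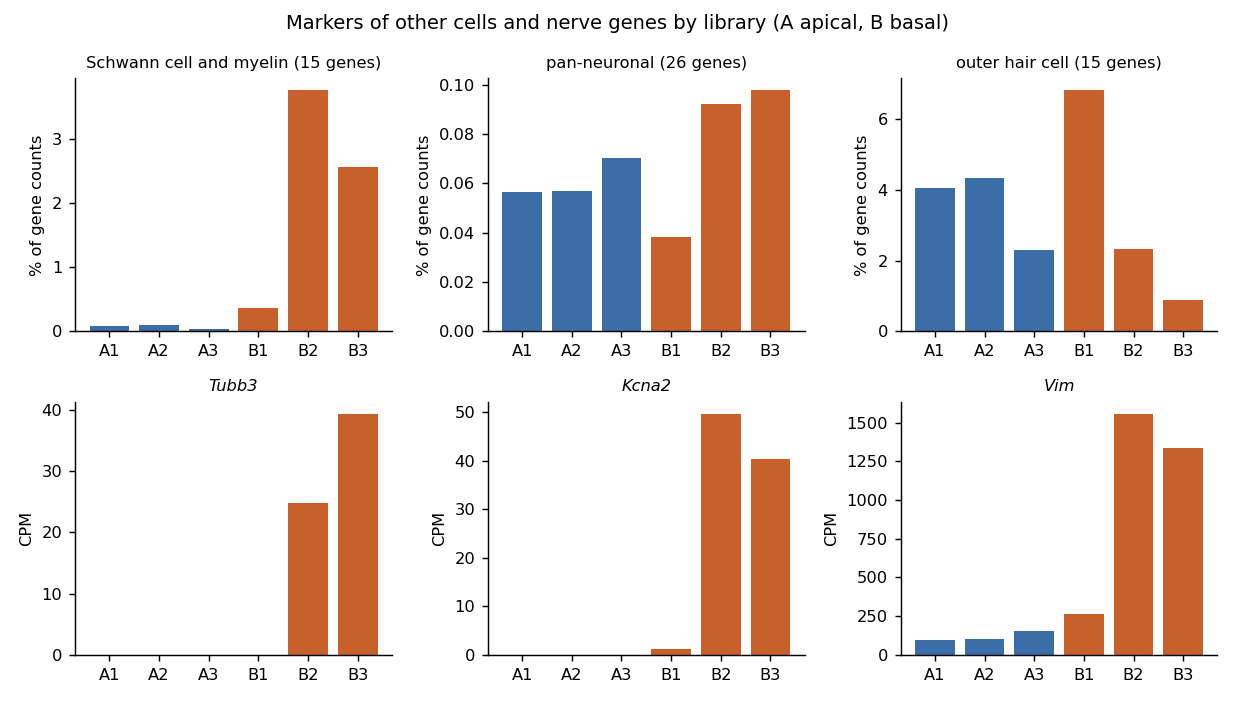
Share of gene counts (percent) taken by Schwann cell, pan-neuronal and outer hair cell markers (top), and CPM of Tubb3, Kcna2 and Vim (bottom), in apical (A1 to A3) and basal (B1 to B3) libraries. Schwann cell genes take 3.76% and 2.57% in basal replicates 2 and 3, where Tubb3 and Kcna2 are also highest.

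Myelin gene levels are set beside those of the 7 genes here. All 15 Schwann cell and myelin genes were tested and were higher in basal libraries, with a median log2 fold change of 6.77. Groups did not overlap for 10 of the 15, against 4.74% of all genes tested with basal higher. As a share of counts the 15 genes took 0.360% in basal replicate 1, above every apical library (0.0420% to 0.0937%). In that library Nefh and Stmn2 were above every apical library. Nefl, Nefm, Gap43 and Thy1 were below every apical library, and Prph had 0 counts. Basal replicate 3 had a lower share than basal replicate 2 (2.57% against 3.76%). Nefh, Nefm, Prph, Stmn2 and Thy1 were higher in basal replicate 3, and Nefl and Gap43 in basal replicate 2. The part of nerve and glial material in these values was not tested. Markers of other cell types leaned one way in some lists: all 10 macrophage, 5 tested endothelial and pericyte and 4 tested red blood cell genes had log2 fold changes above 0, with medians of 4.07, 2.18 and 2.87. Of 8 tested fibroblast genes 6 were above 0, of 14 outer hair cell genes 11 were below, and of 9 supporting cell genes 9 were below, with medians of 1.53, -1.45 and -1.89. Inner hair cell, T cell and efferent markers were split evenly, 2 and 2, 1 and 1, and 2 and 2 of those tested. By edgeR on all 6 libraries no gene of these lists passed. DESeq2 called 11 of the 15 Schwann cell and myelin genes and 4 of the 10 macrophage genes, all higher in basal libraries, and likewise 2 fibroblast, 1 endothelial and pericyte and 1 red blood cell gene. It called 2 outer hair cell, 2 inner hair cell and 2 supporting cell genes, all lower in basal libraries. Of 14350 genes in all, DESeq2 called 664 (4.63%) in either direction and 271 (1.89%) as higher in basal libraries. Otof is on both hair cell lists and is counted in each. Without basal replicate 1 edgeR called 1 gene of these lists, the myelin gene Prx (periaxin), with an adjusted p of 0.0195; Prx is named after its values were seen.

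The genes whose log2 CPM was most like each member's over the 6 libraries were found by Pearson's r among the genes tested, which leaves out Prph. For Nefl they were a locus with no symbol, Nfkb2, a subunit of NF-kappa-B, and Crtc3, a transcription coactivator (r = 0.994, 0.993 and 0.993). For Nefm they were Gpi, a glycolytic enzyme, Eif4a1, a translation initiation helicase, and Hif1a, a hypoxia-response factor (r = 0.995, 0.991 and 0.991). For Nefh they were Tax1bp3, LOC100360316 and Igfbp6, an insulin-like growth factor binding protein (r = 0.985, 0.984 and 0.983). For Gap43 they were Depdc7, Mtif3, a mitochondrial initiation factor, and Bbx (r = 0.99, 0.99 and 0.988). For Thy1 they were Sumf1, Tor1a and Sppl2a (r = 0.992, 0.988 and 0.981). The closest 3 of Stmn2 included a locus with no symbol and Sec62, of protein transport into the endoplasmic reticulum (r = 0.976 for each). With 6 libraries, between 13 genes (Stmn2) and 155 genes (Nefl) reached an r above 0.95. None of the 7 was among another's closest 3.

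Among the 6 tested members themselves, r over the 6 libraries was 0.88 for Nefl with Gap43, 0.89 for Nefl with Thy1 and 0.82 for Nefl with Nefm. Spearman's rho for these pairs was 0.94, 0.66 and 0.43. Nefh had an r of 0.71 with Gap43, 0.43 with Nefl and 0.33 with Nefm. Stmn2 had a negative r with each of the other 5, from -0.68 with Nefm to -0.14 with Thy1. All these values share the same 6 libraries, and basal replicate 1, lowest for 4 members and highest for Stmn2, weighs on them.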

How the data were processed

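Per the file headers, the deposited table holds a read count (whole numbers) and an FPKM value made by the authors for each gene in each library. For the 7 genes FPKM equalled the count divided by length and library total in 6 of 6 libraries, within a relative difference of 1e-06. Bowtie2 2.2.3 and TopHat2 2.0.12 were used, per the submitters' processing notes. Counting tool, genome build and annotation: not given in the sources used here. The labels' protocols name 3 ug of total RNA as library input and no amplification step, although each library came from 30 cells. The kit named there does not mark strand. No other gene row with counts overlapped any of the 7 genes. The authors' mean FPKM and mean normalized count signal per group were not used. The log2 values and p-values of the authors' deposited comparison are quoted only where named as theirs.

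The main test was edgeR 4.0.16 (R 4.3.3) on the counts: filterByExpr, TMM scaling, and the quasi-likelihood test in its default form, basal against apical, with Benjamini-Hochberg adjustment over all 13507 genes. The SE was taken as the absolute log2 fold change over the square root of F. Alternatives used DESeq2 1.42.0 and limma 3.58.1, the latter with voom or on log2(FPKM + 1), where fold changes of low genes are understated. CPM used the library's gene counts, and log2 CPM a prior count of 2. Intervals and floors of 3 counts cover counting error only.

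The members and the 19 gene lists were chosen with earlier results of these data known. Named are the 7 genes, up to 4 listed genes of highest summed CPM per list, and the 3 genes most alike each member; markers with 0 counts are named too, and other exceptions are marked. Some genes that this rule names are not reported here. Of the listed symbols, 190 were matched directly, 1 through an older symbol and 4 not at all. RefSeq symbols and the promoter window are of GRCr8.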

Additional observations from a re-analysis of the deposited data

How the results depend on the processing

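With any 1 library left out, edgeR called 0 to 2 genes, the 2 being without basal replicate 1, and 0 of the 7 genes each time. It called 8 genes with no count filter, 28 in the other form of its test and 289 without basal replicates 2 and 3, an alternative added after seeing the data whose lone basal library must be given the spread of the apical libraries. DESeq2 called 664, and it called 1 of the 7 genes, Nefh (log2 fold change 3.93). The other alternatives called 0 of the 7. The median of the members reversed with limma-voom (-0.28), with limma on log2(FPKM + 0.1) (-0.056) and without basal replicates 2 and 3 (-5.30); with 1 library left out it was 0.48 to 2.44, over 7 members where Prph then passed the filter. Nefl reversed with limma-voom (-0.75), on log2(FPKM + 0.1) (-0.60) and without basal replicates 2 and 3 (-7.51), and Gap43 in the last (-5.98). Thy1 reversed in those fits too (-0.72, -0.20 and -9.84) and with the replicate block (-0.14). With 1 library left out Thy1 ran from -0.79 to 2.44, Nefm from -1.66 to 0.63 and Stmn2 from -0.27 to 0.38. Nefh kept its direction in all 20 alternatives (0.67 to 4.43). The cause of these changes was not tested. Under the replicate block 0 genes passed and the median was 0.66. Deviations of same-numbered libraries correlated at -0.0384, 0.00667 and 0.138, so the numbers were not taken as pairs. Nefl, Gap43 and Thy1 had 0 to 3 counts in basal replicate 1, so their level there is known only to within counting error.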
